A study of Homo sapiens with 4 samples.

Results

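T-box transcription factors were followed through human hematopoietic differentiation in a table of gene expression. The group comprised 10 genes of the 58274 gene IDs in the table: T (Brachyury, listed under its older symbol), EOMES, TBX1, TBX2, TBX3, TBX4, TBX5, TBX6, TBX18 and TBX20. Their rows were taken by gene symbol, and the group itself was chosen with earlier results of these data known. The other 7 genes of the family in the table, TBX10, TBX15, TBX19, TBX21, TBX22, TBR1 and MGA, served for comparison.

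RNA was sequenced from BC1, an established human induced pluripotent stem cell line, in the undifferentiated state and from 3 populations derived from it. Cells received activin A and BMP4 for 2 days and then VEGF (40 ng/ml) and bFGF (50 ng/ml), and the labels and the study's methods give the doses of activin A and BMP4 the other way round, so these are left out. APLNR+ cells, which the study calls mesoderm, were collected at day 2, before VEGF and bFGF. CD31+CD34+ cells, its hemogenic endothelial progenitors, were collected at day 5, and CD43+ cells, its hematopoietic progenitors, at day 8. All 4 libraries came from this 1 line with no genetic change named in the labels. Each population had 1 library, so differences between populations had no replicate check and no test or p-value was possible.

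T-box proteins bind DNA through a shared domain, the T-box, and either activate or repress their target genes. In the gastrulating embryo, EOMES and T are switched on in the primitive streak downstream of Nodal, Wnt and FGF signals, and TBX6 follows in the paraxial mesoderm. Other members act later, above all in the heart and limbs, where TBX5 and TBX20 promote and TBX2 and TBX3 repress programmes of heart muscle.

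The promoters of EOMES and T are shown first, because these genes were among the 3 members with the widest range of expression. RefSeq windows on GRCh38.p14 were found for 8 of the 10 members, with 10 start sites in all. Each sequence below holds the 250 bases before a start site, read 5′ to 3′ on the strand of the gene, which is the minus strand in all 3 cases. EOMES spans chr3:27722324-27722573, T start site 1 chr6:166167852-166168101 and T start site 2 chr6:166168656-166168905. Capitals mark exact matches, on either strand, to any of 5 motifs. These were TATAAA for the TATA box, TCACAC for the core of a T-box site, CTTTGA for the TCF/LEF factors of Wnt signalling, AGATAA for GATA factors and AATCCAC for FOXH1 of Nodal signalling.
EOMES: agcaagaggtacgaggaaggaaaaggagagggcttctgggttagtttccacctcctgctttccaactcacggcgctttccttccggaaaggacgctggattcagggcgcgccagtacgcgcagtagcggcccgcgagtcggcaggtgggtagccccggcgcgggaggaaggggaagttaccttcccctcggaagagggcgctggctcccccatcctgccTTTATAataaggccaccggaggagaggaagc
T start site 1: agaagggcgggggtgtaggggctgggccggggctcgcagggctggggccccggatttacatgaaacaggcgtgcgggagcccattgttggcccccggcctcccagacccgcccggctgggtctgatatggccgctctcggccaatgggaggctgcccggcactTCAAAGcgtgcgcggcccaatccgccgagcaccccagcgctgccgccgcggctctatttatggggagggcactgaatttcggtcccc
T start site 2: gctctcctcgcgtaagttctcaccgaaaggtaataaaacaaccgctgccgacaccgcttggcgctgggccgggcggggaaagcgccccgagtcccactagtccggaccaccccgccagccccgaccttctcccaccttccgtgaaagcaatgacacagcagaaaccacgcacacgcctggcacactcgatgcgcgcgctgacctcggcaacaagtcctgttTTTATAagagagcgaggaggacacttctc

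The capitals in the EOMES window and in T start site 2 were the letters of the TATA box on the opposite strand, from 31 to 26 and from 29 to 24 bases before the start. The capitals in T start site 1 were a TCF/LEF match on the opposite strand, from 87 to 82 bases before the start. No match to the T-box, GATA or FOXH1 letters was found in any of the 10 member windows. Among all 35116 RefSeq windows of this length, 10.7% held TATAAA, 11.2% CTTTGA, 9.90% TCACAC, 9.17% AGATAA and 1.97% AATCCAC. The letters GGGCGG of the GC box, not capitalised here, were in 5 of the 10 member windows and in 42.6% of all windows. GC content of the member windows was 51.2% to 74.0%, against a median of 58.0% over all windows. These matches describe the letters of the windows only, and binding was not measured.

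Expression is given as FPKM, a number of sequenced fragments scaled by transcript length and by the size of the library, which allows levels to be compared between genes. The steps between low FPKM values placed the depth at 19700000 to 23600000 mapped fragments per library. Approximate fragment counts from these depths gave the 95% intervals printed here. They are exact Poisson intervals for a level and exact Clopper-Pearson intervals for a fold, and they cover counting error only. A level of 3 fragments or fewer was treated as the floor of detection, and a fold against a library at 0 FPKM is a lower bound against that floor. A gene rose or fell where its log2(FPKM + 1) differed by at least 1 between consecutive populations.

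The genes of the surface markers were present in the populations named for them, with APLNR at 1073 FPKM in APLNR+ cells, PECAM1 (CD31) and CD34 at 93.1 and 102 FPKM at day 5 and SPN (CD43) at 92.4 FPKM at day 8. PECAM1 was higher still at day 8, at 126 FPKM. The summed level of 5 pluripotency markers went from 2844 FPKM in BC1 to 779, 146 and 116 FPKM in the derived populations in order of collection. In CD31+CD34+ and CD43+ cells most of that sum was LIN28A (117 and 92.9 FPKM) and DPPA4 (27.8 and 22.5 FPKM). POU5F1 was 1.87 and 0.235 FPKM there, and NANOG and SOX2 were under 0.1 FPKM. The 5 mesoderm markers summed to 3.48, 2015, 222 and 26.9 FPKM, the 6 endothelial markers to 48.8, 74.7, 1298 and 299 FPKM, and the 5 hematopoietic markers to 11.4, 8.22, 146 and 1402 FPKM in BC1, APLNR+, CD31+CD34+ and CD43+ cells. These sums hold APLNR, PECAM1, CD34 and SPN, by which cells were selected, so they are not independent of that choice. APLNR made up 1073, 209 and 25.0 FPKM of the mesoderm sums in the derived populations. The next highest mesoderm marker was MIXL1 in APLNR+ cells (474 FPKM). In CD31+CD34+ and CD43+ cells it was HAND1 (5.57 and 0.796 FPKM). PTPRC (CD45), a general blood cell marker, was under 0.1 FPKM in all 4 libraries. The 5 markers of smooth muscle and mesenchyme summed to 164, 148, 313 and 63.9 FPKM in BC1, APLNR+, CD31+CD34+ and CD43+ cells. In CD31+CD34+ cells COL1A1 was 184 FPKM, TAGLN 74.7 FPKM and ACTA2 48.3 FPKM. The part of such cells in the T-box levels was not tested. Of 4 neural markers, only TUBB3 reached 1 FPKM. These are bulk values, in which fewer cells of a type and less RNA per cell cannot be told apart.

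The summed expression of the 10 members was low in BC1, highest in APLNR+ cells and lower at each later stage. Only 4 of the 10 (T, EOMES, TBX3 and TBX6) had their own highest level in APLNR+ cells. The summed level of the 10 genes was 3.18 FPKM before differentiation and 308 FPKM at day 2, and declined to 35.0 FPKM at day 5 and 17.3 FPKM at day 8. At least 1 FPKM was reached by 1 member in BC1 and by 5 members in APLNR+ cells, and then by 3 at day 5 and 4 at day 8. Of all 58274 gene IDs, 14335, 13946, 14128 and 13554 reached it in the same order. The member that made up most of the sum of the 10 genes changed with the population. TBX6 held 69.5% of it in BC1, EOMES held 66.4% in APLNR+ cells, and TBX3 held 68.3% and 53.5% in the last 2 populations. With the other 7 genes of the family included, the sum was 11.3, 316, 42.4 and 24.6 FPKM in order of collection. MGA alone was 7.23 FPKM in BC1, above the sum of the 10 members there.

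**Figure D1:**
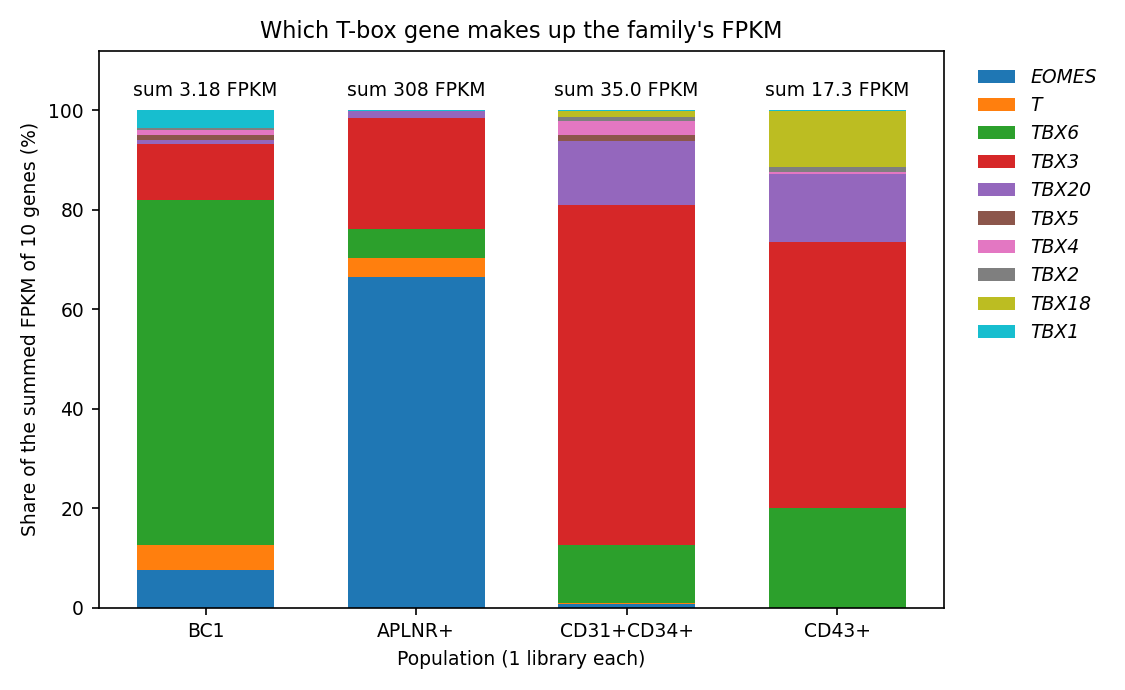
Share of each of the 10 T-box genes in their summed FPKM (vertical axis, %) in BC1, APLNR+, CD31+CD34+ and CD43+ cells, 1 library each, with the sum printed above each bar. TBX6 fills most of the BC1 bar (69.5%), EOMES most of the APLNR+ bar (66.4%) and TBX3 most of the CD31+CD34+ (68.3%) and CD43+ (53.5%) bars, while the sum falls from 308 to 17.3 FPKM after APLNR+ cells.

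From BC1 to APLNR+ cells, 5 of the 10 members rose (T, EOMES, TBX3, TBX6 and TBX20) and none fell, where 9.15% of the 17137 genes with at least 1 FPKM in a library rose and 9.32% fell. On the way from APLNR+ to CD31+CD34+ cells, 4 members fell (T, EOMES, TBX3 and TBX6) and none rose, against 11.4% of all genes that fell and 13.0% that rose. From CD31+CD34+ to CD43+ cells, TBX3 fell and TBX18 rose, against 13.5% of all genes that fell and 7.63% that rose. Both counts in this last step were near those shares. The median difference of the 10 members in log2(FPKM + 1) was 1.32, 0.00 and -0.27 over the 3 steps, beside 0.00, 0.01 and -0.08 for all genes. The filter of 1 FPKM was passed by 6 of the 10 members and by 17137 of the 58274 gene IDs. TBX1, TBX2, TBX4 and TBX5 were under it in every library.

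**Figure D2:**
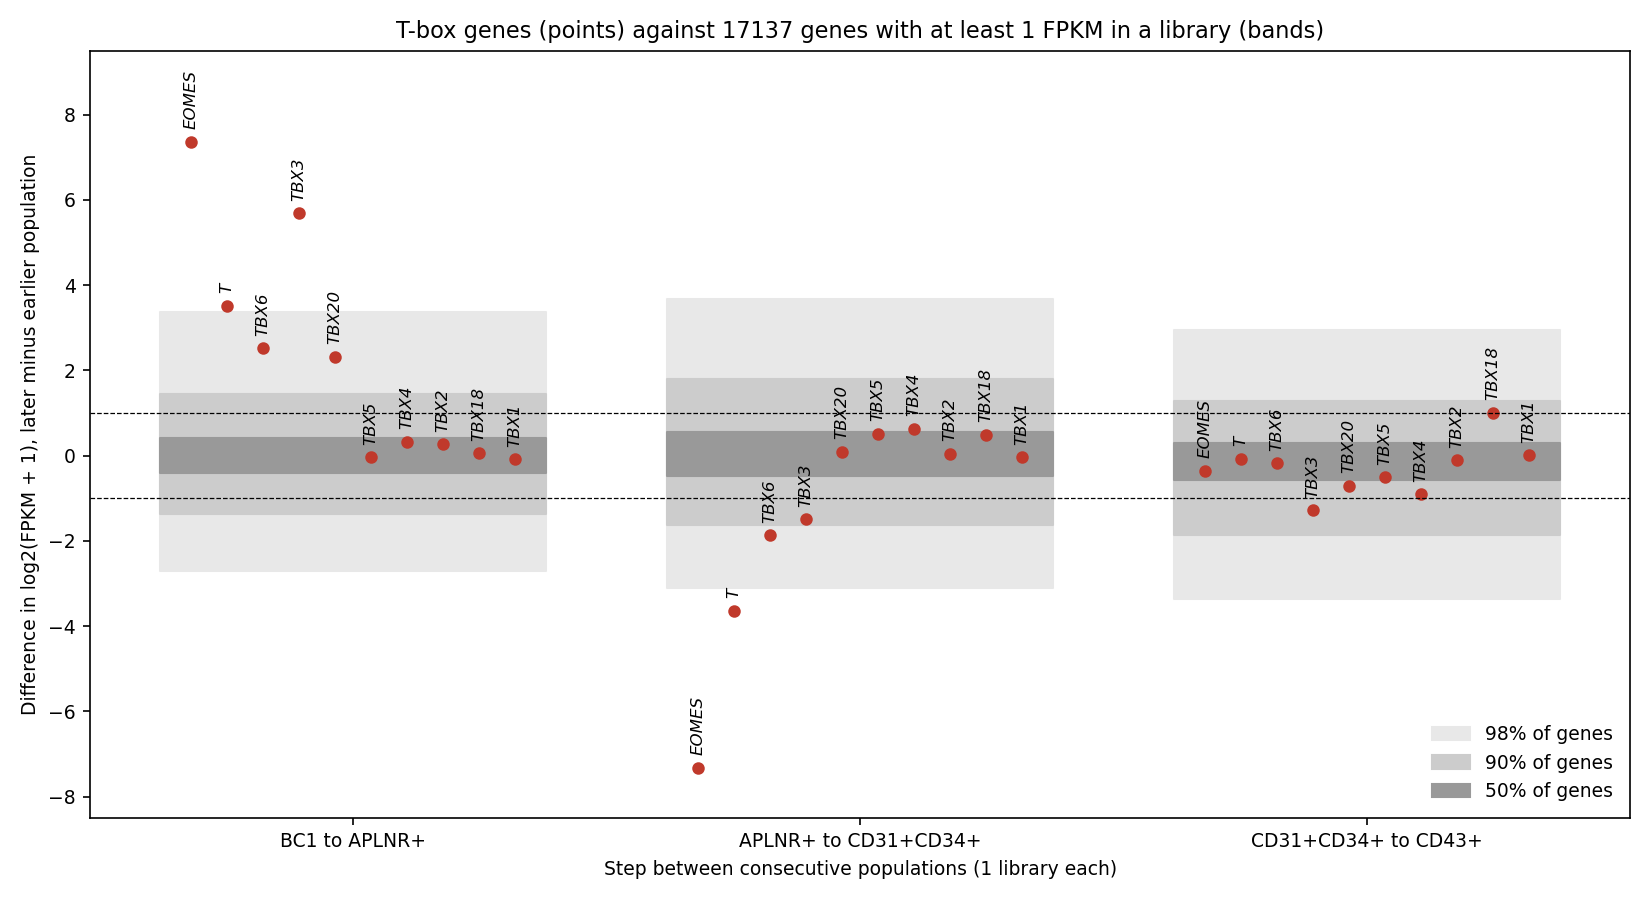
Difference in log2(FPKM + 1) between consecutive populations (vertical axis) for the 10 T-box genes (points), 1 library per population, over bands that hold 50%, 90% and 98% of the 17137 genes with at least 1 FPKM in a library, with dashed lines at 1 and -1. EOMES lies at 7.37 in the first step and at -7.33 in the second, outside the widest band both times, and T does so at 3.51 and -3.64, while in the last step all 10 points lie inside the widest band.

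The members of the primitive streak and early mesoderm peaked together in APLNR+ cells. EOMES, which directs cells to endoderm and to cardiogenic mesoderm, is on chromosome 3 (27715949 to 27722711, minus strand, GRCh38). Undifferentiated BC1 cells held 0.244 FPKM of EOMES and APLNR+ cells 205 FPKM, whereas CD31+CD34+ cells held 0.280 FPKM and CD43+ cells 0 FPKM. The APLNR+ value rested on about 11256 fragments (95% interval 201 to 209 FPKM) and ranked 414 among all genes of that library. EOMES rose 840-fold (481 to 1626) from BC1 and fell 730-fold (456 to 1254) by CD31+CD34+ cells. It was at least 5.13-fold lower again in CD43+ cells, a difference of -0.36 in log2(FPKM + 1) that stayed under the fold that counts as a fall.

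T, the founding member of the family and needed for posterior mesoderm and the notochord, is on chromosome 6 (166157656 to 166168700, minus strand). T went from 0.155 FPKM in BC1 to 12.2 FPKM (11.1 to 13.4) in APLNR+ cells, and then to 0.0563 FPKM at day 5 and 0 FPKM at day 8. The level in APLNR+ cells was the only one of the 4 above 1 FPKM, and those in CD31+CD34+ and CD43+ cells were at or under 3 fragments. T rose 78.5-fold (33.4 to 243) and then fell 217-fold (59.7 to 1796). EOMES and T thus appeared and disappeared over the same steps, but in APLNR+ cells EOMES was 16.8 times the level of T per length, against 1.57 times in BC1, where their intervals overlapped.

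TBX6, which acts in paraxial mesoderm and somite formation, is on chromosome 16 (30085793 to 30091887, minus strand). TBX6 started at 2.21 FPKM in BC1 and reached 17.5 FPKM in APLNR+ cells, with 4.08 FPKM left in CD31+CD34+ cells and 3.47 FPKM in CD43+ cells. Of these 3 genes, it was the only one above 1 FPKM in every library, and the highest of the 10 members in BC1. TBX6 rose 7.90-fold (6.13 to 10.3) and fell 4.29-fold (3.57 to 5.18). The last 2 populations differed 1.17-fold, with an interval that includes 1 (0.913 to 1.51).

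Endoderm markers were given beside this group because EOMES also acts in endoderm. The 4 markers of definitive endoderm summed to 0.856, 17.5, 13.7 and 0.271 FPKM in BC1, APLNR+, CD31+CD34+ and CD43+ cells. In APLNR+ cells SOX17 was the only one that reached 1 FPKM (16.6 FPKM), and FOXA2 was 0.588 FPKM there. The part of these cells in the level of EOMES was not tested.

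**Figure D3:**
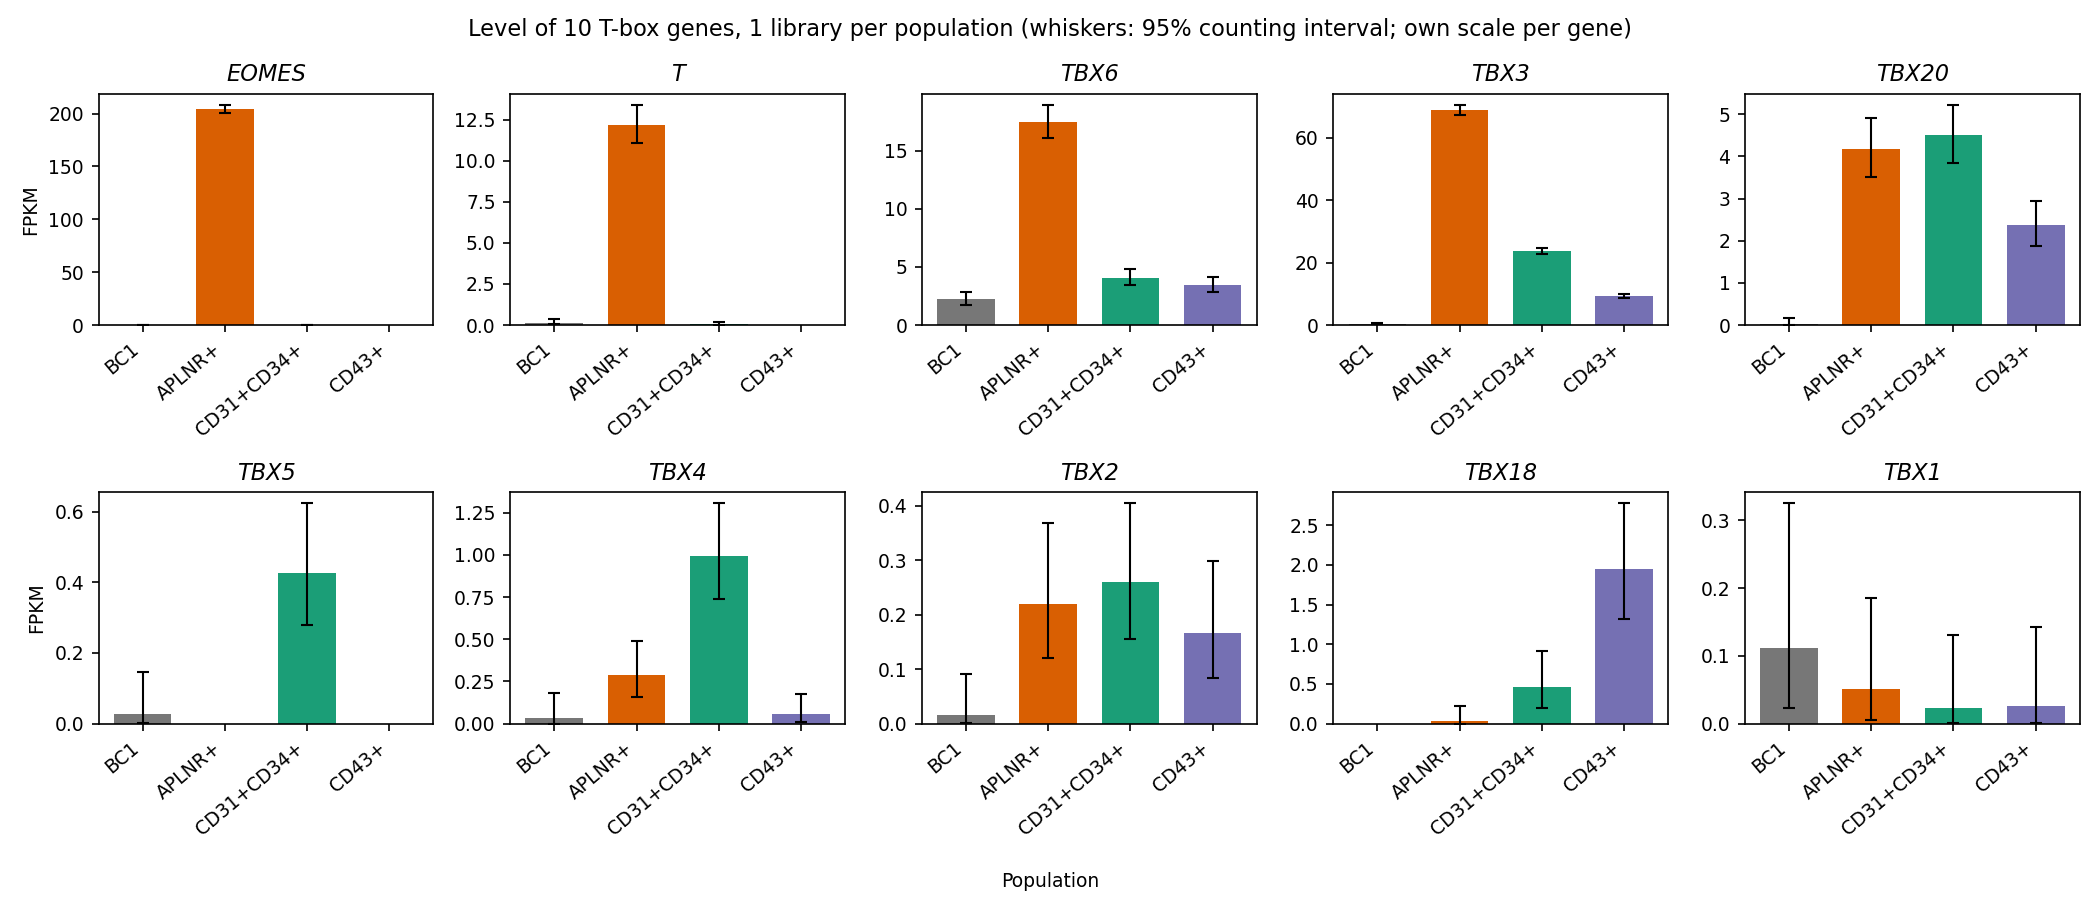
FPKM (vertical axis, linear and on its own scale for each gene) of the 10 T-box genes in BC1, APLNR+, CD31+CD34+ and CD43+ cells, with bars for the level in 1 library and whiskers for the 95% counting interval, drawn only where the level is above 0. EOMES (205 FPKM), T (12.2 FPKM), TBX6 (17.5 FPKM) and TBX3 (69.0 FPKM) are highest in APLNR+ cells, TBX5 and TBX4 in CD31+CD34+ cells and TBX18 in CD43+ cells.

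In the TBX2 subfamily, TBX3 was by far the most abundant member, and its decline was slower than that of EOMES and T. TBX3, a repressor with roles in the conduction system and limbs, is on chromosome 12 (114670254 to 114684164, minus strand). From 0.354 FPKM in BC1 it reached 69.0 FPKM at day 2, followed by 23.9 FPKM at day 5 and 9.22 FPKM at day 8. TBX3 rose 195-fold (136 to 291), fell 2.89-fold (2.75 to 3.03) and fell again 2.59-fold (2.39 to 2.80). It thus kept 34.6% of its APLNR+ level in CD31+CD34+ cells and 13.4% in CD43+ cells.

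TBX5, an activator needed for heart and forelimb formation, lies 261.811 kilobases from TBX3 on the same strand of chromosome 12 (114353931 to 114408442), with no protein-coding gene between them. TBX5 measured 0.426 FPKM (0.278 to 0.624) in CD31+CD34+ cells, 0.0261 FPKM in BC1, and 0 FPKM in both APLNR+ and CD43+ cells. TBX5 was above the floor in CD31+CD34+ cells alone, on about 26 fragments, at least 8.00-fold higher than in APLNR+ cells and at least 7.99-fold higher than in CD43+ cells. The antisense gene that overlaps it, TBX5-AS1, was at most 0.0151 FPKM in every library. TBX3 was 56.1 times the level of TBX5 in CD31+CD34+ cells.

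TBX2 and TBX4 are neighbours on chromosome 17, 42.937 kilobases apart on the plus strand (61399896 to 61409466 and 61452404 to 61485110), again with no protein-coding gene between them. TBX4, an activator of hindlimb and lung development, went from 0.0324 FPKM in BC1 to 0.291 FPKM at day 2 and 0.993 FPKM at day 5, and back to 0.0595 FPKM at day 8. Like TBX5, it was highest in CD31+CD34+ cells. TBX4 was 3.41-fold (1.86 to 6.68) higher there than in APLNR+ cells and 16.7-fold (5.40 to 83.7) higher than in CD43+ cells, although neither difference reached 1 in log2(FPKM + 1). The antisense gene AC005901.1 overlaps TBX4, and its level was not examined. Reads of TBX4 and AC005901.1 cannot be told apart here.

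TBX2, a repressor close to TBX3 in sequence, was 0.0165 FPKM in BC1 and between 0.167 and 0.259 FPKM afterwards, with 0.220 FPKM at day 2, 0.259 FPKM at day 5 and 0.167 FPKM at day 8. Neighbours in time among the 3 derived populations differed 1.18-fold (0.562 to 2.55) and 1.56-fold (0.704 to 3.62), both with intervals that include 1. APLNR+ cells were 13.3-fold (2.03 to 563) above BC1, where about 1 fragment was seen. The overlapping antisense gene TBX2-AS1 was 0, 0.156, 0.364 and 0.0802 FPKM in the same order, also highest in CD31+CD34+ cells. Whether strand was used in counting is not given in the sources used here, so reads of TBX2 and TBX2-AS1 cannot be told apart. The same holds for AC005746.2, a further antisense gene that overlaps TBX2. TBX3 exceeded TBX2 314-fold in APLNR+ and 55.3-fold in CD43+ cells.

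Of the members in the TBX1 subfamily, TBX20 and TBX18 were detected above 1 FPKM and TBX1 was not detected above the floor. TBX20, which is needed for heart chamber growth and valve endocardium, is on chromosome 7 (35202430 to 35254147, minus strand). It was 0.0315 FPKM in BC1, reached 4.16 FPKM in APLNR+ cells and 4.50 FPKM in CD31+CD34+ cells, and was 2.36 FPKM in CD43+ cells. The levels at day 2 and day 5 overlapped. It rose 132-fold (23.4 to 5257) from about 1 fragment in BC1, differed 1.08-fold (0.859 to 1.36) between APLNR+ and CD31+CD34+ cells, and was 1.90-fold (1.45 to 2.51) lower in CD43+ cells, under the fold that counts as a fall.

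TBX18, which marks the epicardium and the sinus horns of the heart, is on chromosome 6 (84687351 to 84764519, minus strand). TBX18 was listed at 0 FPKM in BC1 and at 0.0389 FPKM in APLNR+ cells, and then reached 0.463 FPKM at day 5 and 1.94 FPKM at day 8. TBX18 was thus the only member whose highest level was in CD43+ cells. That level rested on about 30 fragments, or about 250 with the length of its longest transcript. The order of the populations was the reverse of that for TBX3 among the derived cells. TBX18 rose 4.20-fold (1.88 to 10.6) from CD31+CD34+ to CD43+ cells, with a difference of 1.01 in log2(FPKM + 1) that barely passed the fold. The table listed TBX18 on 2 rows, and the second, 736 bases within the gene, held 0.102 FPKM of the 1.94 FPKM in CD43+ cells. With the higher row alone, or with the libraries scaled to equal totals, TBX18 no longer passed. The overlapping antisense gene TBX18-AS1 was at 0 FPKM in all 4 libraries.

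TBX1, known for pharyngeal arch and outflow tract development, is on chromosome 22 (19756703 to 19783593, plus strand) and overlaps GNB1L on the other strand. It was 0.111, 0.0511, 0.0235 and 0.0257 FPKM in BC1, APLNR+, CD31+CD34+ and CD43+ cells, about 1 to 3 fragments each. All 4 levels were at or under the floor, so no fold was computed, and a change was not detectable at this depth.

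Cardiac muscle markers were examined beside TBX5, TBX20 and TBX18. The 6 markers summed to 24.5, 63.1, 72.7 and 1.89 FPKM from BC1 through to CD43+ cells. Most of the sum in CD31+CD34+ cells came from NKX2-5 (69.2 FPKM). MYL7 was 1.39 FPKM, MYH6 0.928 FPKM and ACTN2 0.884 FPKM there. MYH7 and TNNT2, which encode contractile proteins, were 0.102 and 0.178 FPKM. MYH6 had its highest level of the 4 libraries in CD31+CD34+ cells, as did ACTN2, which was 0.856 FPKM in BC1. In CD43+ cells NKX2-5 was 1.23 FPKM, ACTN2 0.249 FPKM, MYH6 0.213 FPKM and MYH7 0.191 FPKM, its highest level of the 4 libraries, and TNNT2 and MYL7 were listed at 0 FPKM. The part of cardiac cells in the levels of TBX5, TBX20 and TBX18 was not tested.

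Within each library, the order of the members was clear only for the abundant ones. In BC1, TBX6 stood 6.25-fold above TBX3, and the intervals of all neighbours below that overlapped. In APLNR+ cells the order EOMES, TBX3, TBX6, T, TBX20 and TBX4 had no overlap between neighbours. In CD31+CD34+ cells TBX3 led by 5.31-fold, and TBX20 and TBX6 overlapped (4.50 and 4.08 FPKM). In CD43+ cells TBX3 led by 2.66-fold over TBX6, and TBX6, TBX20 and TBX18 overlapped from neighbour to neighbour before a gap of 11.7-fold to TBX2.

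Between BC1 and CD43+ cells, TBX3, TBX18 and TBX20 were past the fold of 1 in log2(FPKM + 1), all higher in CD43+ cells, and the other 7 members were under it. Of all genes, 15.2% rose and 18.9% fell between these populations. EOMES and T were at least 4.46-fold and 1.78-fold lower in CD43+ cells than in BC1, since both were at 0 FPKM. TBX6 was 1.57-fold (1.15 to 2.15) higher in CD43+ cells, TBX3 26.1-fold (18.0 to 39.2), TBX20 75.0-fold (13.1 to 2998) and TBX2 10.1-fold (1.47 to 435). TBX18 was at least 9.26-fold higher, or 76.3-fold with the length of its longest transcript. TBX1, TBX4 and TBX5 were at or under the floor in both.

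The remaining family members were mostly low. MGA, which pairs a T-box with a MAX-binding domain, was the highest of the 7 in every library. It was 7.23 FPKM in BC1 and 6.05, 5.94 and 5.33 FPKM from day 2 to day 8. TBX19, a regulator of pituitary cells, ranged from 0.361 to 1.27 FPKM, above the floor in every library (about 15 to 63 fragments). TBX10 was 0.236, 0.435, 0.0334 and 1.10 FPKM from BC1 through to CD43+ cells, with its highest level in CD43+ cells, as for TBX18. TBX10 was the only one of the 7 genes past the fold, in the last step, where 7.63% of all genes rose. It barely passed, from about 1 fragment in CD31+CD34+ cells, a level under the floor. Whether this rise holds under other scalings was not tested. TBX15, TBX21, TBX22 and TBR1 were at most 0.282 FPKM in any library.

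Genes known to act with the T-box factors were counted in 4 lists. Genes named for being in a count of 5 or fewer were picked after their values were seen. Of 23 upstream signalling genes, 11 rose and 4 fell (NODAL, LEFTY1, TCF7L1 and BMPR1A) from BC1 to APLNR+ cells, 11 fell and 0 rose in the next step, and 6 fell and 2 rose (LEFTY1 and WNT5B) in the last. The shares of all genes were 9.15% that rose and 9.32% that fell, 13.0% and 11.4%, and 7.63% and 13.5%, and the 2 that rose in the last step were near theirs. The list's median difference was 0.14, -0.89 and -0.19 in log2(FPKM + 1), beside 0.00, 0.01 and -0.08 for all genes.

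Several of these signals had the peak of EOMES and T in APLNR+ cells. BMP4, a signal that induces mesoderm and was also added to the medium, was 1.83, 305, 12.0 and 1.33 FPKM in BC1, APLNR+, CD31+CD34+ and CD43+ cells. WNT5A, a Wnt ligand, was 0.876, 160, 1.41 and 3.40 FPKM, and FGF8, a streak FGF, was 1.12, 17.1, 0 and 0 FPKM. Others were already high in BC1. TDGF1, the Nodal co-receptor, was 271 and 260 FPKM in BC1 and APLNR+ cells and then 0.559 and 0 FPKM. TCF7L1, a repressor of Wnt targets, fell from 93.9 to 18.9 FPKM, stood at 35.6 FPKM in CD31+CD34+ cells and fell to 1.07 FPKM.

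Of the 23 mesoderm and endoderm genes downstream, 16 rose and 0 fell in the first step, 14 fell and 0 rose in the second, and 11 fell and 0 rose in the last. The other 7, 9 and 12 genes stayed under the fold in these steps. APLNR is counted in the 16, the 14 and the 11. The day 2 cells were selected by it, so its rise into them and its fall after them are not independent of that choice. Among all genes 9.15%, 13.0% and 7.63% rose and 9.32%, 11.4% and 13.5% fell. The list's median difference was 4.08, -1.89 and -0.76 in log2(FPKM + 1). CER1, a secreted antagonist of Nodal and BMP and the most abundant of the list, was 2.50, 2991, 0.0905 and 0.0497 FPKM in BC1, APLNR+, CD31+CD34+ and CD43+ cells. MIXL1, a homeobox gene of the streak, was 0.931, 474, 0.982 and 0.468 FPKM.

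The downstream genes did not all disappear with EOMES. GATA6, a regulator of endoderm and heart, was 0.0434, 363, 57.8 and 12.3 FPKM in BC1, APLNR+, CD31+CD34+ and CD43+ cells, so that it fell stepwise as TBX3 did. HAND1, a regulator of lateral mesoderm, was 0.309, 357, 5.57 and 0.796 FPKM. APLNR, the apelin receptor used to name the day 2 cells, was 0.782, 1073, 209 and 25.0 FPKM.

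**Figure D4:**
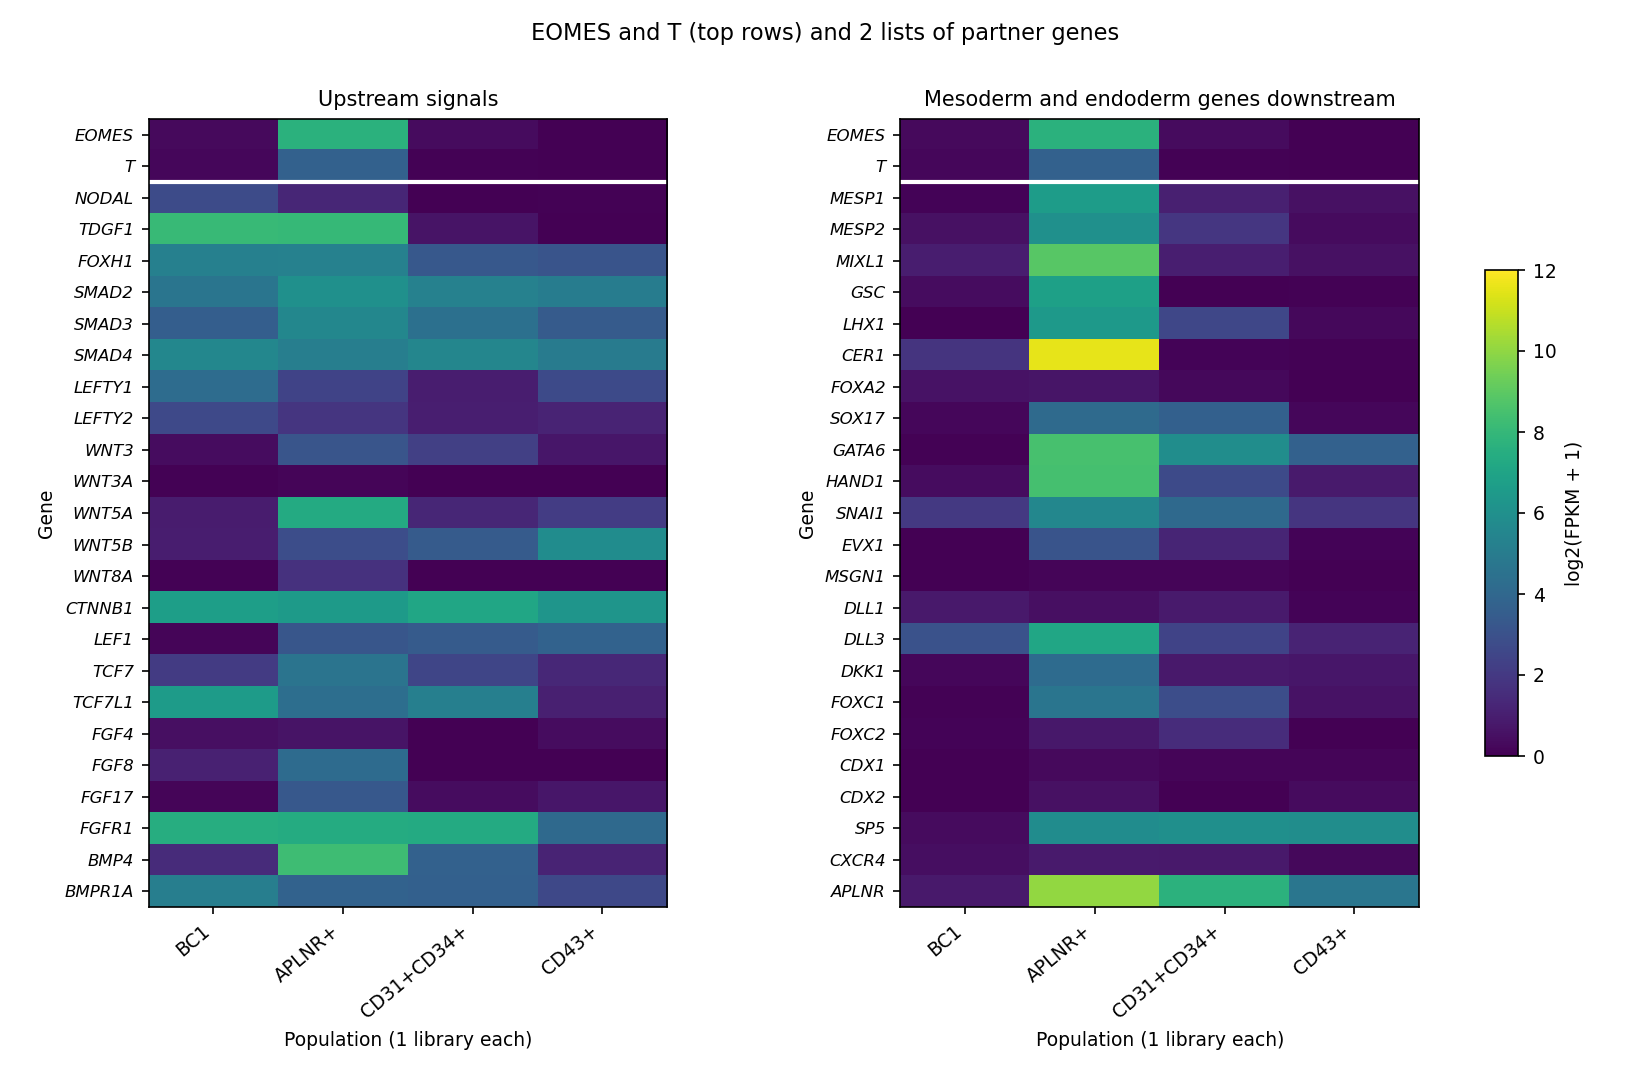
Heat map of log2(FPKM + 1) (colour scale from 0 to 12) in BC1, APLNR+, CD31+CD34+ and CD43+ cells, 1 library each, for EOMES and T (above the white line) and for the 23 genes each of the upstream and downstream lists (rows). Of the downstream genes, 16, APLNR among them, rose into APLNR+ cells with EOMES and T. TDGF1 among the signals was already at 271 FPKM in BC1.

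Of 15 cofactors and corepressors, 6 rose and 1 fell (RIPPLY2) in the first step. In the second, 2 rose (NKX2-5 and GATA5) and 4 fell (TLE1, TLE3, GATA4 and SMARCD3), and in the last, 1 rose (LMO4) and 5 fell (TLE2, NKX2-5, GATA4, GATA5 and SMARCD3). Against all genes (9.15%, 13.0% and 7.63% rose, 9.32%, 11.4% and 13.5% fell), the 1 that fell in the first step, the 2 that rose in the second and the 1 that rose in the last were near or under the background. The median difference was 0.48, -0.12 and -0.54 in log2(FPKM + 1). The partners of TBX5 and TBX20 in the heart differed in when they peaked. GATA4 was 0.311, 122, 41.6 and 0.935 FPKM in BC1, APLNR+, CD31+CD34+ and CD43+ cells, NKX2-5 0.0350, 9.77, 69.2 and 1.23 FPKM, and GATA5 0.0217, 1.66, 34.2 and 11.1 FPKM. NKX2-5 and GATA5 were thus highest in CD31+CD34+ cells, as were TBX5, TBX4 and, within counting error of APLNR+ cells, TBX20. The histone demethylase gene KDM6B was highest in CD43+ cells, at 0.806, 13.5, 23.3 and 32.6 FPKM in the same order. TLE2, a Groucho corepressor, stayed between 29.8 and 35.5 FPKM until CD31+CD34+ cells and was 1.90 FPKM in CD43+ cells.

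Of 15 heart field genes linked to TBX5, TBX20, TBX2, TBX3 and TBX18, 6 rose and 2 fell (GJA5 and TNNT2) in the first step. In the second, 2 rose (GJA5 and BMP10) and 6 fell, and in the last, 7 fell and 0 rose. The 2 that rose in the second step were near the 13.0% of all genes, and the other shares of all genes were 9.15% risen and 9.32% fallen in the first step, 11.4% fallen in the second, and 7.63% and 13.5% in the last. The median difference was 0.62, -0.90 and -0.90 in log2(FPKM + 1). BMP2, a ligand of the mesoderm and of valve formation, was 0.912, 287, 1.25 and 0.349 FPKM in BC1, APLNR+, CD31+CD34+ and CD43+ cells, and MYL7, an atrial myosin light chain, was 0.971, 51.7, 1.39 and 0 FPKM. GJA5, which encodes a connexin of arterial endothelium and atrium that TBX5 activates and TBX3 represses in the heart, was 3.50, 0.590, 51.2 and 9.93 FPKM. HAND2, a regulator of the heart fields, was 0, 13.5, 12.4 and 1.54 FPKM. TNNT2 was highest in BC1, at 22.5, 1.20, 0.178 and 0 FPKM.

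Over the 4 lists together, 76 genes outside the family, 39 rose and 7 fell in the first step, 4 rose and 35 fell in the second, and 3 rose and 29 fell in the last. In all genes of the table that passed the filter, 9.15% rose and 9.32% fell, then 13.0% and 11.4%, and last 7.63% and 13.5%, so the 7 that fell in the first step were near the share of all genes. APLNR, by which the day 2 cells were selected, is in the 39, the 35 and the 29. Consecutive steps share a library, so these counts are not independent of each other.

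The genes outside the family with the most similar profile were sought for the 3 members with the widest range, by the Euclidean distance between log2(FPKM + 1) values over the 4 libraries. For EOMES they were GRP (a neuropeptide, distance 0.652), GSC (the homeobox gene goosecoid, 0.953) and CYP26A1 (a retinoic acid hydroxylase, 1.15). GSC was 0.303, 111, 0 and 0.0472 FPKM in BC1, APLNR+, CD31+CD34+ and CD43+ cells. For TBX3 the nearest genes were farther away, ARHGAP31 (1.28), FAM89A (1.46) and CRIP1 (1.70). For T they were SNORA73B (0.224), AC133041.1 (0.225) and AC107918.4 (0.232). With a pseudocount of 0.1, 3 of the 3 nearest genes were shared for EOMES, but 1 of 3 for TBX3 and 1 of 3 for T.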

How the data were processed

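Total RNA of the 4 populations was made into Illumina TruSeq libraries, 1 per population, and the table's columns were assigned by name. The authors deposited gene-level FPKM values. Their processing notes name BWA, Bowtie, RSEM and hg19, with no version or role, but of 55572 gene IDs on 1 row whose version is in GENCODE 29, 55570 had the same start and end on GRCh38, so positions are given on that build. The table held 58365 rows for 58274 gene IDs, and the rows of 90 IDs on more than 1 row were summed.

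Depth was fitted from genes with 1 transcript of at least 1000 bases: 93.2% to 95.1% of low values came within 0.1 of a whole number of fragments, with 260 to 280 bases taken off the length. Fragments were approximated from the median length of a gene's coding transcripts, which for TBX18 (986 bases against 6245 for the longest) makes intervals too wide. With the longest length, its fragment counts and its lower bound against the floor are higher. Its APLNR+ level is then about 5 fragments, above the floor. A pseudocount of 1, a fold of 1 in log2(FPKM + 1) and a filter of 1 FPKM in at least 1 library were used. No gene-wise test was run, since no population had a replicate.

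All members are named. From each list, up to 5 genes with the widest difference at any step and at least 5 FPKM in a library are named, and for the 3 members with the widest range the 3 nearest genes by profile. The members and lists were chosen with earlier results of these data known. Alternatives were other pseudocounts (0.1, 0.5), a fold of 2, other scalings, other filters and, chosen after seeing the data, the highest row of a gene ID. Computations used Python 3.11.15, numpy 2.4.6, pandas 2.3.3, scipy 1.17.1 and matplotlib 3.10.9.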

Additional observations from a re-analysis of the deposited data

How the results depend on the processing

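The counts of members that rose into and fell after APLNR+ cells were the same under both rescalings (equal totals per library, and the median ratio to the geometric mean), a pseudocount of 0.5 and the highest row only. With a pseudocount of 0.1, 7 members rose in the first step (TBX2 and TBX4 added), 3 rose (TBX4, TBX5 and TBX18) in the second, and 4 fell (EOMES, TBX3, TBX4 and TBX5) in the last, where a pseudocount of 0.5 gave 2 (TBX3 and TBX4). With a fold of 2, 2 members (T and EOMES) fell in the second step, and 0 rose and 0 fell in the last. Shares of all genes were computed only at a pseudocount of 1 and a fold of 1. Counts at other pseudocounts or folds thus have no share beside them. The rise of TBX18 was lost (0 members) with equal totals, with the highest row only and with a fold of 2. Median ratio scaling shifted the last step by 0.15 in log2, and TBX3 in CD43+ cells was 0.356 (equal totals) or 0.429 (median ratio) of its CD31+CD34+ level, against 0.386 as deposited, a fall each time.

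For the 76 genes of the 4 lists, a fold of 2 gave 2 that fell in the first step, 23 that fell in the second, and 1 that rose and 17 that fell in the last, and a pseudocount of 0.1 gave 7 that rose in the second step and 6 in the last. No share of all genes was computed at these settings. At a pseudocount of 1 and a fold of 1 without the filter, 2.69% of all genes rose and 2.74% fell in the first step. The shares were 3.83% and 3.36% in the second, and 2.24% and 3.98% in the last. These unfiltered shares are no background for the counts at a fold of 2 or a pseudocount of 0.1. No paired analysis was possible because each population had 1 library, and for the same reason no replicate could be left out. Depth limits what can be said of TBX1, TBX2, TBX4 and TBX5, which stayed under 1 FPKM.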
